A study of Mus musculus with 8 samples.

Results

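The genes of cholesterol and fatty acid synthesis were examined in the prefrontal cortex (PFC) of mice that overexpressed Rnf146. The group was a list of 30 gene symbols chosen by function, and all 30 had a value among the 15039 genes of the deposited table. The list holds 17 enzymes of the sterol route, 5 genes of its transcriptional control, 7 enzymes of fatty acid synthesis and 1 sterol transport protein. RNA sequencing covered 8 PFC libraries, 4 labelled AAV-RNF146 expressed and 4 labelled AAV-eGFP expressed, from wild-type C57BL/6NCrljOri mice. The males were injected in the PFC on both sides at 6 weeks of age with AAV2/1-hsyn-RNF146-eGFP or with the control virus AAV2/1-hsyn-eGFP, and tissue was taken 4 weeks later. Both viruses express eGFP, and the synapsin promoter (hsyn) restricts expression to neurons, whereas the dissected tissue also holds glia and vessels. The labels do not say how many mice were in a library, so the p-values measure only the spread between these libraries.

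Cells build cholesterol from acetyl-CoA through mevalonate, farnesyl diphosphate and squalene, and build fatty acids from the same acetyl-CoA through malonyl-CoA. Both routes are controlled by the sterol regulatory element-binding proteins (SREBPs), which the escort protein Scap carries from the endoplasmic reticulum for cleavage when sterols are scarce and which the Insig proteins hold back when sterols are plentiful. The adult brain makes its own cholesterol behind the blood-brain barrier. Astrocytes and oligodendrocytes are the main producers, and myelin holds most of the cholesterol of the brain.

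The deposited values are on a log2 scale and are centred so that the eGFP and the RNF146 value of a replicate number add up to the same sum in all 4 pairs. Each gene therefore carries 4 independent values, the differences RNF146 minus eGFP of the 4 pairs, and all differences below are given on this log2 scale. *Rnf146* (chromosome 10 of GRCm39, 29216737 to 29238438, minus strand) lay between 10.35 and 10.50 in the eGFP libraries and between 13.01 and 13.17 in the RNF146 libraries, which matches the labels. Its difference was 2.64 ± 0.13 (SD, n = 4 pairs) and its adjusted p 3.2e-07 in limma (replicate numbers as blocks). The virus encodes mouse *Rnf146*, and viral and endogenous transcripts cannot be told apart in these values.

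To show the control regions of these genes, RefSeq promoter sequences (GRCm38.p6) were read for the 24 of the 30 genes that matched by symbol. *Fdps*, *Fdft1*, *Sqle*, *Scd1*, *Scd2* and *Stard4* had no match. The 24 genes had 32 promoters, and the 250 bases before each start were searched on both strands for 4 motifs. The motifs were CCAAT, the box bound by the nuclear factor NF-Y, GGGCGG, a core of Sp1 sites, CANNTG, the E-box, and TCACNCCAC, the core of a sterol regulatory element. CCAAT was found in 21 of the 32 promoters (65.6%), in 35.0% of the 14368 promoters of genes in the deposited table and in 33.8% of all 32851 promoters. By gene, 20 of the 24 (83.3%) held it in at least 1 promoter, against 40.5% of the 11133 matched genes of the table. GGGCGG was in 71.9% of the promoters of the group and in 55.8% of those of the table's genes (32.7% of all promoters), and CANNTG was in 68.8%, 58.0% and 66.2%. By gene, the shares of the group and of the table were 83.3% and 63.1% for GGGCGG. They were 62.5% and 61.9% for CANNTG. TCACNCCAC was in 1 promoter of the group, that of *Hmgcs1*, and in 0.967% of the promoters of the table's genes and 1.05% of all. Only exact matches to TCACNCCAC were counted, and sequences that differ from it by a base were not. The count therefore does not show how many promoters hold a sterol regulatory element. The 5 sequences below are shown because they contrast *Hmgcs1*, the 1 gene of the group with TCACNCCAC, and *Fasn*, both with more than 1 CCAAT match, with *Srebf1*, *Acly* and *Elovl6*, whose differences between the groups were among the largest of the 30. They run 5′ to 3′ from 250 to 51 bases before the start. Capitals mark CCAAT on either strand (ATTGG when on the opposite strand) and TCACNCCAC.
Hmgcs1: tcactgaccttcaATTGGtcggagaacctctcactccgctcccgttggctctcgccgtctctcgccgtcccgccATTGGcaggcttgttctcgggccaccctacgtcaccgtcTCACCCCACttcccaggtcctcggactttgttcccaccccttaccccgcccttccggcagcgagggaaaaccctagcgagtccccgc
Fasn: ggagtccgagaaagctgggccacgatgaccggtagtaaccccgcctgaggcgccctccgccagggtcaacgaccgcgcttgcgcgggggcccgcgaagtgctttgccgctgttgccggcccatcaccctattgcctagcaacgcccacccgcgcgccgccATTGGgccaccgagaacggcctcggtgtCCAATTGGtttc
Srebf1: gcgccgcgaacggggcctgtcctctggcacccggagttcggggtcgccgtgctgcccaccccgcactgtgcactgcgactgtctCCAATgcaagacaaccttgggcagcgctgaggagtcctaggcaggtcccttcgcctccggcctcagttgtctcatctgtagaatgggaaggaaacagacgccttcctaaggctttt
Acly: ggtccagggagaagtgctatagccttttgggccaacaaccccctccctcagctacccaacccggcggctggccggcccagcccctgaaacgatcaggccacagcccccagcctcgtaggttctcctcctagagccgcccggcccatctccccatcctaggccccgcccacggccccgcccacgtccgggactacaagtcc
Elovl6: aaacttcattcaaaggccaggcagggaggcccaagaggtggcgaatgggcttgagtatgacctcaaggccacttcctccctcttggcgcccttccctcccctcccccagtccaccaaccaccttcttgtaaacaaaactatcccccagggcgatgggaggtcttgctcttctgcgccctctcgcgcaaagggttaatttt
The windows are chr13:119690101-119690300 (plus strand), chr11:120824598-120824797 (minus strand), chr11:60222632-60222831 (minus strand, the outermost of its 3 promoters), chr11:100528051-100528250 (minus strand) and chr3:129532136-129532335 (plus strand) on GRCm38.p6. Which of the 3 *Srebf1* promoters is used in this tissue was not examined. In its 250 bases, the one shown had 1 CCAAT and 0 GGGCGG matches. The next had 0 and 2, and the innermost had 1 and 2. *Acly* and *Elovl6* had 0 CCAAT matches in the windows shown. *Acaca* and *Scap*, with differences of -0.11 and -0.03, also had 0 in the 250 bases before each start. Whether the start read for *Acaca* is the main start of the gene was not examined. *Scd1* and *Scd2* had no promoter to read. The window of *Fasn* had 3, of which a pair overlap on opposite strands in the run of 8 capitals. These matches are letters in a window and not measured binding sites.

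None of the 30 genes passed the test between RNF146 and eGFP libraries after correction over all genes. In limma, fitted with the replicate block and called at an adjusted p up to 0.1, the calls among the 30 numbered 0, while 1.25% of all 15039 genes were called (0.818% higher and 0.432% lower in the RNF146 libraries). The lowest adjusted p of the group was 0.202, that of *Srebf1*. At an unadjusted p under 0.05, 5 of the 30 passed, all higher in the RNF146 libraries, against 12.4% of all genes in either direction and 6.45% in this direction. These 5 genes were *Srebf1*, *Scd2*, *Acly*, *Elovl6* and *Scd1*, of which 4 encode enzymes of fatty acid synthesis and *Srebf1* encodes the SREBP best known for controlling that route. The other 3 enzymes of that route did not pass, *Fasn* at 0.07, *Acaca* at -0.11 and *Acss2* at -0.09. For 4 of the 30 genes, *Sqle*, *Acly*, *Scd2* and *Elovl6*, all 4 pairs were higher in the RNF146 library. The groups of these genes did not overlap, which with the centred values is the same fact and no further evidence. Over all genes, 20.6% had 1 sign in all 4 pairs (10.4% higher and 10.2% lower). The median difference of the 30 genes was 0.02, and that of all genes was 0.00086. When the replicate block was left out, 6 of the 30 were called (*Srebf1*, *Scd2*, *Acly*, *Elovl6* and *Scd1* higher and *Acaca* lower), but that fit takes the centred values for 8 independent libraries and called 21.5% of all genes. Quantile normalization called 1 of the 30, *Scd2*, and 1.15% of all genes, and library weights called 1, *Srebf1*, and 2.36% of all genes.

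**Figure D1:**
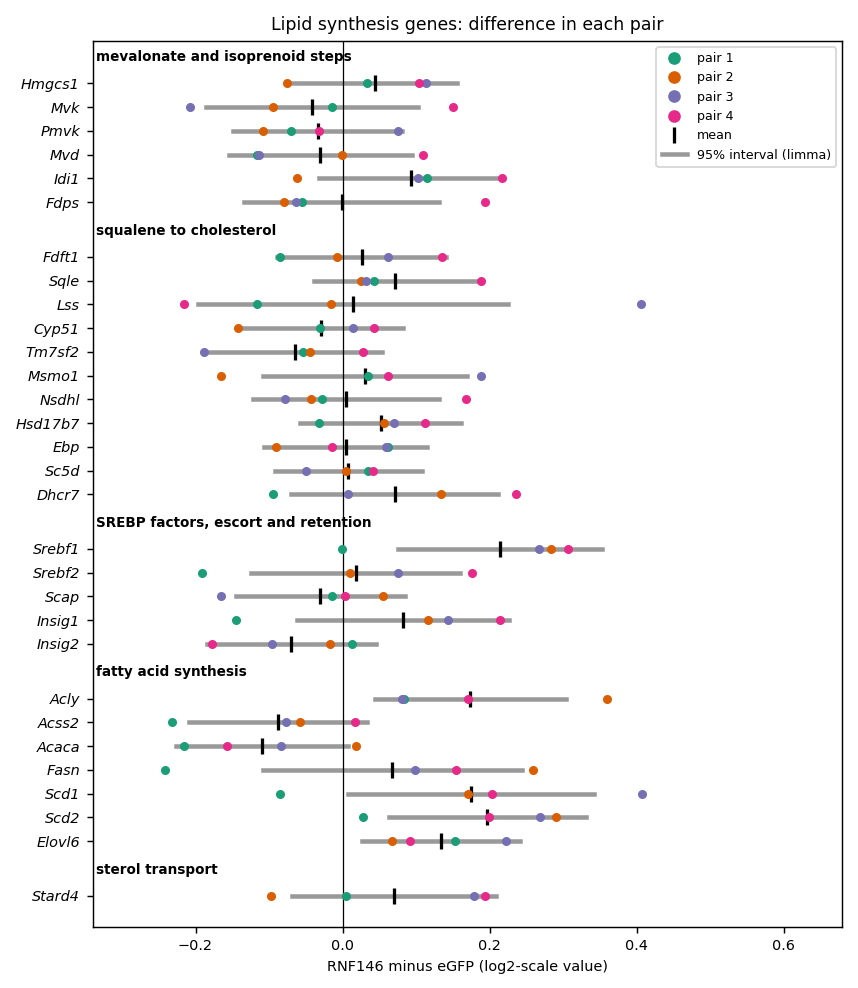
Difference RNF146 minus eGFP (log2-scale value, horizontal axis) of the 30 genes, ordered by role. Dots are the 4 pairs, black ticks the means and grey bars the 95% intervals of limma with the replicate block. The bars of *Srebf1*, *Acly*, *Scd1*, *Scd2* and *Elovl6* lie above 0, and those of all 17 sterol enzymes include 0.

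The 17 enzymes of the sterol route showed small differences. Their means ran from -0.06 for *Tm7sf2* to 0.09 for *Idi1*, and 11 of the 17 lay above 0. At an unadjusted p of 0.05 in limma 0 of the 17 passed, against 12.4% of all genes. The lowest adjusted p among them was 0.532. The 95% intervals had a median half-width of 0.12, and the widest, that of *Lss*, ran from -0.20 to 0.23, so that a mean difference of more than 0.23 in either direction lay outside the interval of every sterol enzyme. Averaged over the 17 genes, the difference was -0.02, -0.04, 0.03 and 0.09 in pairs 1 to 4 and averaged 0.01 ± 0.06 (SD, n = 4 pairs), so that the pairs varied by more than their mean.

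In the first part of the route, *Hmgcs1* encodes the synthase that makes HMG-CoA. Its value was 12.60, 12.66, 12.56 and 12.57 in the eGFP libraries and 12.63, 12.58, 12.67 and 12.67 in the RNF146 libraries. The groups overlapped, and the difference of 0.04 ± 0.09 (SD, n = 4 pairs) was smaller than its spread. *Idi1*, which interconverts the isoprenoid building blocks, had the largest difference of the sterol enzymes, 0.09 ± 0.12, and was higher in 3 of 4 pairs. *Mvk*, *Pmvk* and *Mvd*, which phosphorylate and decarboxylate mevalonate, had differences of -0.04, -0.03 and -0.03 and were each lower in 3 of 4 pairs. *Fdps*, which makes farnesyl diphosphate, had a mean of -0.00096, as pair 4 was at 0.19 and the other 3 pairs were between -0.08 and -0.05.

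Of the 11 enzymes from squalene synthesis to cholesterol, 9 had a mean above 0. *Sqle*, the squalene epoxidase and a rate-limiting step of the route, was the 1 sterol enzyme that was higher in all 4 pairs. Its eGFP values were 10.74, 10.75, 10.75 and 10.67, and its RNF146 values were 10.78, 10.78, 10.78 and 10.86. The difference was 0.04, 0.02, 0.03 and 0.19 in the 4 pairs, so that pair 4 carried most of the mean of 0.07 ± 0.08 (adjusted p = 0.593 from limma). *Lss*, which closes the ring to form lanosterol, had the widest spread of the 30 genes, with -0.12, -0.02, 0.41 and -0.22 in the 4 pairs and a mean of 0.01 ± 0.27. *Dhcr7*, a reductase of the last steps, had 0.07 ± 0.14. *Fdft1*, the squalene synthase, and the later enzymes *Cyp51*, *Msmo1*, *Nsdhl*, *Hsd17b7*, *Ebp*, *Sc5d* and *Tm7sf2* had means between -0.06 and 0.05. *Sc5d*, a sterol desaturase, had the smallest spread of the 30, 0.0079 ± 0.04. *Stard4*, a carrier of cholesterol between membranes, ranged from -0.10 in pair 2 to 0.19 in pair 4 and averaged 0.07 ± 0.14.

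Of the 5 regulators of the route, 3 had a mean above 0 and 1 passed an unadjusted p of 0.05, against 12.4% of all genes. *Srebf1* (chromosome 11 of GRCm39, 60089913 to 60113407, minus strand) had the largest difference of the 30 genes. It overlaps *Rai1* on the opposite strand, and the libraries were stranded. It was at 10.53, 10.39, 10.40 and 10.38 in the eGFP libraries and at 10.53, 10.68, 10.67 and 10.69 in the RNF146 libraries. Pair 1 showed no difference (-0.00031), and the other 3 pairs were between 0.27 and 0.31. The mean was 0.21 ± 0.14 (SD, n = 4 pairs; 95% interval 0.08 to 0.35; adjusted p = 0.202 from limma with the block). Without pair 1 it was 0.29 with an adjusted p of 0.043 from limma, and without any 1 of the other pairs it was 0.18 to 0.20 with adjusted p-values of 0.363 to 0.545. *Srebf2*, which mainly controls the sterol enzymes, had -0.19, 0.01, 0.08 and 0.18 in the 4 pairs and a mean of 0.02 ± 0.16, smaller than the spread. *Scap*, the escort protein, had -0.03 ± 0.09. *Insig1*, itself a well-known SREBP target, had -0.14 in pair 1 and 0.12 to 0.21 in the others, averaging 0.08 ± 0.16, and *Insig2* had -0.07 ± 0.09.

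Among the 7 enzymes of fatty acid synthesis, 4 passed an unadjusted p of 0.05 and 0 an adjusted p of 0.1 in limma. The shares of all genes were 12.4% (6.45% higher) and 1.25%. *Scd2* (chromosome 19, 44281613 to 44295303, plus strand) encodes the main stearoyl-CoA desaturase of the brain. Its eGFP values were 15.04, 14.91, 14.92 and 14.95, and its RNF146 values were 15.07, 15.20, 15.19 and 15.15. *Scd2* was higher in all 4 pairs, so that with the centring every RNF146 library was above every eGFP library. Pair 1 differed by 0.03 only and the other pairs by 0.20 to 0.29. The mean was 0.20 ± 0.12 (95% interval 0.06 to 0.33; adjusted p = 0.223).

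*Scd1* (chromosome 19, 44382894 to 44399154, minus strand), the related desaturase next to it, was at 12.12, 11.99, 11.87 and 11.97 in the eGFP libraries and at 12.03, 12.16, 12.28 and 12.18 in the RNF146 libraries. It was lower in pair 1 and higher in the other 3, with differences of -0.08, 0.17, 0.41 and 0.20 and a mean of 0.17 ± 0.20 (adjusted p = 0.383). *Scd1* and *Scd2* are closely related genes, and how reads that fit both were divided between them was set by the authors' quantification and could not be checked. Without pair 1, *Scd2* was at 0.25 and *Scd1* at 0.26, with adjusted p-values of 0.063 and 0.091 from limma. Without any 1 of the other pairs, *Scd2* was at 0.17 to 0.20 (adjusted p 0.395 to 0.609) and *Scd1* at 0.10 to 0.18 (adjusted p 0.630 to 0.675), the lowest *Scd1* value being that without pair 3. Without pair 1, 3 of the 30 genes were called, *Srebf1*, *Scd1* and *Scd2*, and 2.8% of all genes were.

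*Acly* (chromosome 11, 100367165 to 100440756, minus strand) makes cytosolic acetyl-CoA from citrate and so feeds both routes. It was at 12.19, 12.05, 12.19 and 12.14 in the eGFP libraries and at 12.27, 12.41, 12.27 and 12.31 in the RNF146 libraries, higher in all 4 pairs. Pair 2 differed by 0.36 and the other pairs by 0.08 to 0.17, with a mean of 0.17 ± 0.13 (adjusted p = 0.265). *Elovl6* (chromosome 3, 129326004 to 129432144, plus strand), which elongates palmitate, was at 10.80, 10.84, 10.77 and 10.83 in the eGFP libraries and at 10.95, 10.91, 10.99 and 10.92 in the RNF146 libraries. It was the most even of the 5 genes, with differences of 0.07 to 0.22 and a mean of 0.13 ± 0.07 (adjusted p = 0.295).

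Of the other 3 enzymes of the route, 1 had a mean above 0 and 2 had a mean below 0. *Fasn*, the fatty acid synthase, was lower in pair 1 (-0.24) and higher in pairs 2, 3 and 4 (0.26, 0.10 and 0.15), and its mean of 0.07 ± 0.22 was smaller than the spread. *Acaca*, which encodes the acetyl-CoA carboxylase that commits carbon to fatty acids, had a mean of -0.11 ± 0.10 and was lower in 3 of 4 pairs (95% interval -0.23 to 0.01). *Acss2*, which makes acetyl-CoA from acetate, had -0.09 ± 0.10 and was also lower in 3 of 4 pairs. The average over the 7 genes came to -0.07, 0.16, 0.13 and 0.10 in pairs 1 to 4, or 0.08 ± 0.10. The mean over the fatty acid enzymes minus that over the sterol enzymes was -0.05, 0.20, 0.11 and 0.0074, or 0.07 ± 0.11 (SD, n = 4 pairs), within the spread between the pairs.

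**Figure D2:**
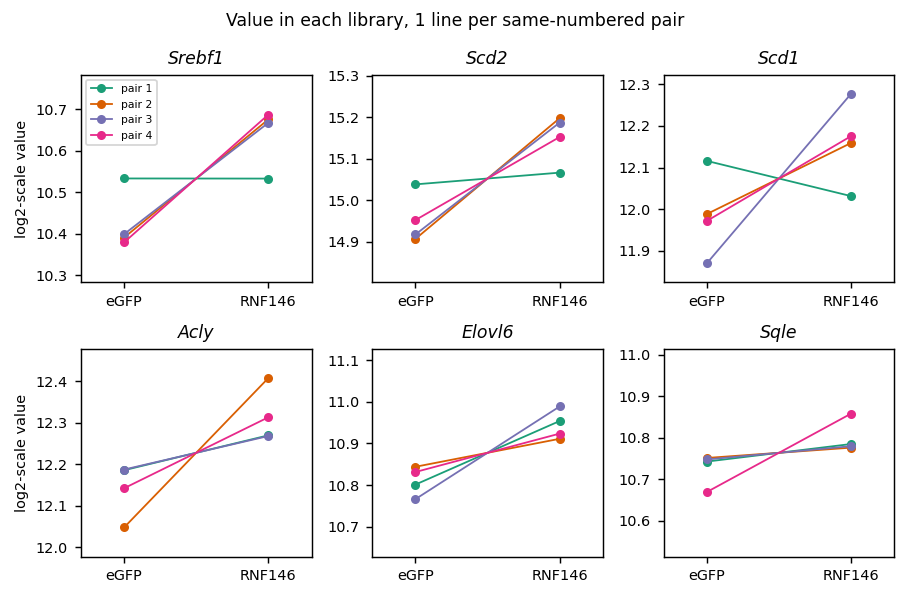
Log2-scale value (vertical axis) of 6 genes in the eGFP and the RNF146 libraries, with 1 line for each same-numbered pair and panels of equal height. *Scd2*, *Acly*, *Elovl6* and *Sqle* are higher on the RNF146 side in all 4 pairs, whereas the line of pair 1 is flat for *Srebf1* and slopes down for *Scd1*.

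The pairs differed in how many of the 30 genes were higher in the RNF146 library. The number was 11 in pair 1 (36.7%), 14 in pair 2 (46.7%), 20 in pair 3 (66.7%) and 25 in pair 4 (83.3%). Over all genes the corresponding shares lay between 49.2% and 51.1%. The mean of the 30 differences was -0.04, 0.03, 0.06 and 0.10 in the 4 pairs, and 0.04 ± 0.06 on average (SD, n = 4 pairs). With 4 pairs the smallest two-sided p that exact sign flips allow is 0.125, and no test was made of this mean. Pair 1 was the lowest pair for *Srebf1*, *Srebf2*, *Insig1*, *Fasn*, *Scd1* and *Scd2*. It was also the lowest for *Acaca* and *Acss2* and for the sterol enzymes *Mvd*, *Fdft1*, *Hsd17b7* and *Dhcr7*.

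Of the 8 marker lists, those of oligodendrocytes and striatal neurons were below 0 in pair 1 and above 0 in pairs 2, 3 and 4. The 12 oligodendrocyte markers, among them the myelin genes *Mog* and *Cnp*, were all measured and had a mean difference of -0.11 in pair 1 and of 0.42, 0.83 and 0.50 in pairs 2, 3 and 4, or 0.41 ± 0.39 (SD, n = 4 pairs). Their mean level ran from 10.89 to 11.36 in the eGFP libraries and from 11.25 to 11.71 in the RNF146 libraries, and none was absent. All 12 had an unadjusted p under 0.05 and 0 were called, against 12.4% and 1.25% of all genes. Their lowest adjusted p was 0.121 from limma. In bulk tissue, more cells of a type and more RNA per cell cannot be told apart. The 10 astrocyte markers had a mean difference of -0.02 ± 0.06, with *Gfap* the farthest from 0 at -0.13. The 9 striatal neuron markers ranged from -0.11 in pair 1 to 1.36 in pair 2, with a mean of 0.57 ± 0.63. The 9 markers of cortical excitatory neurons averaged -0.24, -0.38, -0.05 and -0.20 in the 4 pairs. Of this list *Slc17a7* and *Neurod2* were called lower, both at -0.30, as were 0.432% of all genes. The part of these cells in the differences above was not tested. The covariate fits that follow cannot separate it from the virus, as the marker means used there themselves differed between the groups. The striatal markers were not used as a covariate.

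**Figure D3:**
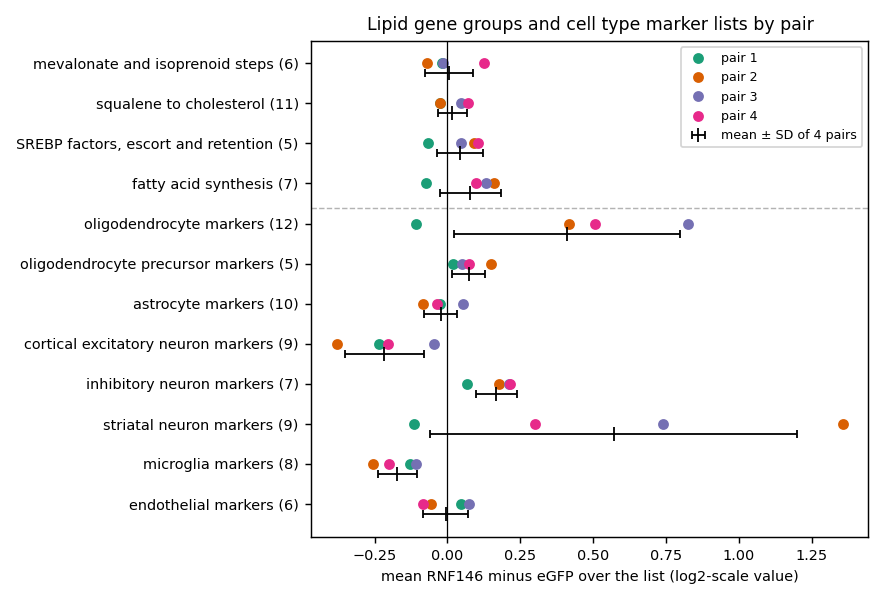
Mean difference RNF146 minus eGFP (log2-scale value, horizontal axis) of 4 lipid gene groups, above the dashed line, and 8 marker lists, with the number of measured genes in brackets. Dots are the 4 pairs, and black bars the mean ± SD of the pairs. Pair 1 lies below 0 and pairs 2, 3 and 4 above 0 for the fatty acid and SREBP groups and for the oligodendrocyte and striatal markers.

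With the mean of the oligodendrocyte markers as a covariate beside the block, the estimates of the 5 leading genes moved by unequal amounts. *Acly* was at 0.17 and *Elovl6* at 0.11, close to their values without the covariate. *Srebf1* went from 0.21 to 0.08, *Scd2* from 0.20 to 0.09 and *Scd1* from 0.17 to -0.04. *Fasn* went from 0.07 to -0.10 and *Lss* from 0.01 to -0.18. *Acaca* and *Acss2* were both at -0.17. Under this covariate 0 of the 30 genes were called and 0 had an unadjusted p under 0.05 (limma; 13% of all genes did, and 1.7% were called), and 14 of the 30 had a difference above 0 in place of 20. The fit leaves 2 residual degrees of freedom, and the intervals were wide and overlapped. They ran, for example, from -0.09 to 0.26 for *Srebf1* and from -0.04 to 0.37 for *Acly*. The fit therefore does not separate the genes that moved from those that did not. With the excitatory neuron markers as the covariate instead, *Acly* was at 0.0019, *Srebf1* at 0.23, *Scd2* at 0.20, *Elovl6* at 0.23, *Scd1* at 0.35 and *Lss* at 0.29. Under this covariate 0 of the 30 were called, as were 0.00665% of all genes, and 4 of the 30 had an unadjusted p under 0.05 in limma (5.14% of all genes did). These were *Elovl6*, *Scd1*, *Msmo1* and *Stard4*, the last 2 both at 0.26.

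**Figure D4:**
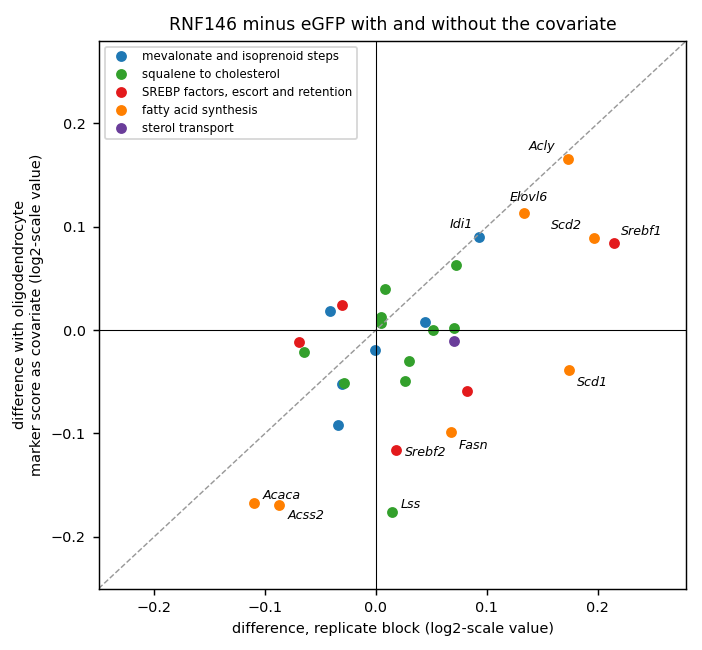
Difference RNF146 minus eGFP (log2-scale value) of the 30 genes with the replicate block (horizontal axis) and with the mean of 12 oligodendrocyte markers added as a covariate (vertical axis), coloured by role. The dashed line marks equal values. *Acly*, *Elovl6* and *Idi1* lie close to it, and *Srebf1*, *Scd2*, *Scd1*, *Fasn* and *Lss* lie below it.

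Neighbouring genes of lipid metabolism were grouped in lists by function. Of 67 measured genes in 5 lists, 0 were called and 5 had an unadjusted p under 0.05 in limma, 3 higher and 2 lower, against 1.25% and 12.4% of all genes, and their median difference was -0.00041. Of the 8 genes that process SREBPs or mediate the sterol-regulated degradation of enzymes, 4 had a mean above 0. The largest difference was that of *Mbtps1*, the protease that makes the first cut in SREBPs, at 0.15 ± 0.22. Of the 12 measured genes of sterol efflux, hydroxylation and esterification, 3 had a mean above 0. *Abca1*, the transporter that exports cholesterol to lipoproteins, was higher in all 4 pairs, by 0.14 ± 0.05 (adjusted p = 0.269 from limma), and *Cyp46a1*, the neuronal cholesterol hydroxylase, was lower in all 4, at -0.09 ± 0.06 (adjusted p = 0.478). Of the 25 genes of fatty acid elongation, desaturation and activation, 16 had a mean above 0. *Acacb*, the second acetyl-CoA carboxylase, had 0.34, 0.24, 0.06 and 0.31 in the 4 pairs and a mean of 0.24 ± 0.13 (adjusted p = 0.137), opposite in sign to *Acaca*. *Acsl5*, an acyl-CoA synthetase, was lower in all 4 pairs, at -0.20 ± 0.16 (adjusted p = 0.240).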

How the data were processed

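RNA from the PFC of 4 AAV-RNF146 and 4 AAV-eGFP samples was measured by RNA sequencing (TruSeq stranded mRNA), and each value column was matched to its sample by title. The authors trimmed reads with Cutadapt, quantified transcripts with Salmon 1.9.0 against GENCODE vM30 (GRCm39). The table has 1 row per gene symbol. DESeq2 is also among the tools in the submitters' processing notes. It is named as normalized counts, yet the deposited numbers lie on a log2 scale, from 7.86 to 18.8, centred within same-numbered pairs (largest spread of the pair sums 1.4e-13). The transformation and the centring are not described in the sources used here. The spread of the pair differences was flat over expression level (median SD 0.093 in the lowest and 0.097 in the highest of 5 equal bins of genes), so differences of weakly expressed genes may be compressed. Neither counts nor depth can be read from these values, and levels are not per length, so levels of different genes were not compared.

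Libraries were paired by the replicate numbers of the labels and by the centring, which fixes the correlation of same-numbered libraries. The fit used limma 3.58.1 in R 4.3.3 (eBayes with trend) over all 15039 genes, with the replicate number as a block (3 residual degrees of freedom) and Benjamini-Hochberg adjustment, and called at an adjusted p of 0.1. The genes and lists were chosen with earlier results of these data known. All 30 genes are named, with values in each library for those called, those with 1 sign in all 4 pairs and the 3 with the largest mean difference. *Hmgcs1* was added for its promoter. In the other lists the called genes and the gene with the largest difference are named, except for 1 gene that is not reported here, and *Cyp46a1*, *Acsl5*, *Mog* and *Cnp* were picked once their values were known. The alternatives were no block, median centring, quantile normalization, untrended and robust variances, library weights, removal of genes with the lowest mean values, a threshold of 0.05, 2 marker covariates, and each pair left out. Coordinates of genes are from GENCODE vM39 on GRCm39, and promoters from RefSeq on GRCm38.p6. Other steps ran in Python 3.11.15 (pandas 2.3.3).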

Additional observations from a re-analysis of the deposited data

Results flagged for a closer look

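Of 34 sets of 4 pair differences examined (30 genes and 4 role groups), 3 held a pair whose gap to the nearest other pair was above Dixon's 95% critical value for its share of the whole range. Chance flags about 1 in 20 sets. *Srebf1* had -0.00031 in pair 1, while pairs 2, 3 and 4 gave 0.27 to 0.31. *Sqle* had 0.19 in pair 4, against 0.02 to 0.04 in the others. *Fdps* had 0.19 in pair 4, against -0.08 to -0.05 in the others. Pair 4 was also the pair in which 25 of the 30 genes were higher in the RNF146 library.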

How the results depend on the processing

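The count of called genes among the 30 was 0 with the replicate block and stayed 0 under median centring, untrended or robust variances, removal of weakly expressed genes, a threshold of 0.05 and both marker covariates. It was 1 with quantile normalization (*Scd2*, adjusted p = 0.090), 1 with library weights (*Srebf1*, adjusted p = 0.093), 6 with no replicate block, and 0 to 3 with each pair left out, the 3 being those without pair 1. The centring fixes the pairing, so the fit with no block counts 6 residual degrees of freedom where 3 exist. Of the 67 other genes of the pathway, 0 were called with the block, 11 without it, 1 with library weights, 1 with the oligodendrocyte covariate and 0 to 1 with each pair left out. Over all genes, 188 were called with the block, 80 at a threshold of 0.05, 3226 with no replicate block, 355 with library weights, 1 with the excitatory neuron covariate, and 14 to 421 with each pair left out. The mean difference of the 30 genes, 0.04, was 0.01 without pair 4, 0.06 without pair 1, -0.01 with the oligodendrocyte covariate and 0.07 with the excitatory neuron covariate, each less than the SD between pairs (0.06) away from it. Under the 9 alternatives that can move a difference, its sign changed in 37 of 270 combinations with a gene. The causes of these changes were not tested. *Rnf146* was called under all alternatives.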

Other observations

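The 11 genes of the isoprenoid branches use farnesyl and geranylgeranyl diphosphate for dolichol, ubiquinone and protein prenylation. Of these, 0 passed an unadjusted p of 0.05 in limma, against 12.4% of all genes. Their mean difference was -0.0014 ± 0.03 (SD, n = 4 pairs), with *Rabggta*, a subunit of the enzyme that prenylates Rab proteins, the farthest from 0 at -0.08 ± 0.10. Of the 11 genes of fatty acid oxidation, 0 were called and 1 passed an unadjusted p of 0.05, against 1.25% and 12.4% of all genes. This was *Acadvl*, the very long-chain acyl-CoA dehydrogenase, which was lower in all 4 pairs, at -0.12 ± 0.04 (adjusted p = 0.321 from limma).

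Of the remaining marker lists, those of inhibitory neurons and microglia held called genes in limma, 3 of 7 and 2 of 8, against 1.25% of all genes. Those of oligodendrocyte precursors and endothelial cells held 0. They had 1 and 0 genes with an unadjusted p under 0.05 in limma, against 12.4% of all genes. Of the 7 inhibitory neuron markers, *Gad1*, *Gad2* and *Slc32a1*, which make and load GABA, were called higher, with differences of 0.45, 0.64 and 0.53, while *Vip* and *Lamp5* had -0.23 and -0.13. Of the 8 microglia markers all had a mean below 0, and *C1qb* and *Ctss* were called, at -0.26 and -0.34. The 5 oligodendrocyte precursor markers had a mean difference of 0.07 ± 0.06, with *Lhfpl3* the farthest from 0 at 0.18, and the 6 endothelial markers -0.0055 ± 0.08, with *Slco1a4* the farthest at -0.06. Of the striatal and excitatory lists, *Penk* and *Cux2* were the farthest from 0, at 0.77 and -0.35.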
